A study of Mus musculus with 18 samples.

Results

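Lymphatic endothelial cells (LEC) of mouse skin were described in the first days after a stretching device had been placed under the skin. A kept cell was taken as LEC when it held at least 2 UMIs of Prox1 and Mmrn1 together, at least 1 UMI of Pecam1, Cdh5, Flt4 or Lyve1, no UMI of the leukocyte gene Ptprc, and under 1% of its UMIs from Col1a1 and Col1a2. A UMI (unique molecular identifier) marks 1 captured RNA molecule. Barcodes under 200 genes or 500 UMIs, or with over 10% of UMIs from mitochondrial genes, had been left out. By this rule 919 of 47251 kept cells were LEC, 451 in control and 468 in expanded libraries. Members were thus chosen by measured UMI counts of these 9 genes, whose values are given as a description only.

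All mice had the same surgery, an incision near the tail and a tunnel under the skin up to the neck. A hydrogel expander was then stitched in place under the skin near the neck in the expanded arm, and control mice had no expander. Skin was digested 1, 2 or 4 days later, live DAPI-negative cells were sorted, and the mice of each arm and sequencing round were pooled in 1 tube for 10x Chromium 3′ sequencing. The libraries form 5 pairs, each with 1 library per arm (day 1 in rounds 1 and 2, day 2 in rounds 1 and 2, day 4 in round 1). Strain, age and sex were not given in the sources used here. Values listed below for an arm follow that order of pairs. Mice of 1 arm and round share a tube and a library, so p-values over libraries measure the spread between pools.

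Lymphatic vessels drain fluid, proteins and immune cells from the skin. Blind-ended lymphatic capillaries carry the hyaluronan receptor LYVE1 and the dendritic cell attractant CCL21, and they empty into collecting vessels with valves, which lose LYVE1. The transcription factor PROX1 fixes the lymphatic fate, and VEGF-C acting on VEGFR3, the product of Flt4, drives lymphatic growth. In other settings lymphatic endothelium responds to stretch, to fluid flow and to inflammation.

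The gate held cells with the known marks of lymphatic endothelium. Levels are given as CPM, the UMIs of a gene scaled to a fixed library total, from the UMIs summed over the LEC of a library, which numbered 95532 to 1019971. Ccl21a, which the gate did not use, ran from 4457 to 19899 CPM over the 10 libraries, against at most 0.893 CPM in cells of a blood endothelial gate (at least 2 UMIs of Pecam1 and Cdh5, none of Prox1, Mmrn1 or Lyve1, the same limits on Ptprc and collagen). Reln, the secreted glycoprotein reelin, had 109 to 391 CPM against at most 2.66 CPM in the blood gate. Among genes outside the rule with at least 100 CPM in control LEC, the largest ratios over the blood gate were those of Ccl21a, Nts (neurotensin), Reln and Pkhd1l1. Some genes of blood endothelium were low in LEC, with a median of 6.74 CPM for Sox17 against 173 CPM in the blood gate, and of 47.3 against 999 CPM for Flt1. Plvap was present in LEC but lower, at a median of 199 against 1511 CPM. Others had similar medians: Emcn 418 CPM in LEC and 417 CPM in the blood gate, Kdr 299 and 288 CPM, and Sox18 118 and 141 CPM. These medians are over the 10 libraries of both arms, and Emcn differed between the arms of LEC, as described below. The files hold several Ccl21 genes with nearly the same sequence, so the level of Ccl21a (ENSMUSG00000094686) is uncertain in its share of that family.

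Cells near the threshold were less clearly lymphatic. Among the 825 members with at least 3 UMIs of Prox1 and Mmrn1, 74.1% had a Ccl21a UMI. The share was 48.9% of the 94 members with 2 UMIs and 24.2% of the 178 cells just outside with 1 UMI, against 0.280% of the 2499 cells of the blood gate. A further 46 cells failed only on Ptprc and 23 only on collagen. Expanded LEC were captured more deeply, with library medians of 4919 to 9166 UMIs per cell against 3633 to 5521.5 UMIs in control LEC. No LEC barcode was shared between libraries (263 barcodes of kept cells were), and Scrublet called 2 members doublets.

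Markers of other cell types were found in LEC, at sums of up to 2257 CPM. The ranges of the fibroblast, keratinocyte, macrophage and neutrophil sums overlapped between the arms. In the gene test described below, the markers Lum, Dpt and Lyz2 were lower and S100a9 was higher in expanded LEC. The 11 fibroblast markers summed to 673 to 1557 CPM in control LEC and 101 to 941 CPM in expanded LEC, with none of them at 0, while Col1a1 in all other kept cells had library medians of 17826 CPM in control and 1740 CPM in expanded skin. The 12 keratinocyte markers summed to 83.7 to 892 CPM in control and 30.4 to 2257 CPM in expanded LEC, with none at 0. The 15 macrophage markers summed to 136 to 592 CPM and 150 to 249 CPM, with only Ptprc, which the gate bars, at 0. The 11 neutrophil markers summed to 26.3 to 106 CPM and 13.3 to 195 CPM, with Mmp9 at 0. Dendritic, lymphocyte, Schwann and melanocyte, and mast cell markers summed to at most 247 CPM in any library, pericyte and smooth muscle markers to at most 255 CPM, and 6 of the 9 markers of muscle and fat were at 0. The part of these cells in the results below was not tested.

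The first comparison asked whether LEC made up a different share of the cells. In each of the 5 pairs, LEC were a larger share of Ptprc-negative cells in the expanded library. The shares were 1.17%, 1.63%, 1.5%, 4.00% and 2.12% in control libraries and 2.61%, 4.51%, 3.52%, 8.72% and 4.05% in expanded libraries. Day 2 round 2 was the highest pair in both arms, and the arms overlapped only because its control library lay above 2 expanded libraries of other rounds. The means were 2.08% ± 1.12 and 4.68% ± 2.37 (SD, n = 5 each), a difference of 2.60 percentage points (exact two-sided permutation test, p = 0.0238, smallest possible 0.00794). The exact sign-flip test over the 5 pairs gave its smallest possible p of 0.0625. Cells of at least 2000 UMIs were also thinned to 2000 UMIs and gated again, at 1 UMI of Prox1 and Mmrn1 rather than 2. The difference was then 1.98 percentage points (exact permutation p = 0.0635). Leaving out 1 library raised the exact permutation p above 0.05 for each of the 4 control libraries other than day 2 round 2, up to 0.0714, and gave 0.0556 and a difference of 1.59 points without the expanded library of day 2 round 2.

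Over all kept cells the LEC share was 1.48% ± 0.715 in control and 2.79% ± 1.32 in expanded libraries (SD, n = 5 each, exact permutation p = 0.0794). It was higher in 5 of 5 pairs, and it reached an exact permutation p of 0.0317 without the expanded library of day 2 round 1 and 0.0397 without the control library of day 2 round 2. As a share of the gated endothelial cells, LEC made up 26.5%, 18.8%, 17.3%, 39.3% and 18.7% in control and 20.7%, 28.0%, 37.5%, 66.0% and 26.8% in expanded libraries. This share was higher in 4 of 5 pairs and lower on day 1 round 1, and its means of 24.1% ± 9.25 and 35.8% ± 17.9 (SD, n = 5 each) were not distinguished by the exact permutation test (p = 0.206). Without the expanded library of day 2 round 2 the difference fell from 11.6 to 4.09 percentage points. A share moves with every other cell type in its denominator, and more LEC cannot be told apart here from fewer other cells or from a different yield in digestion.

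**Figure D1:**
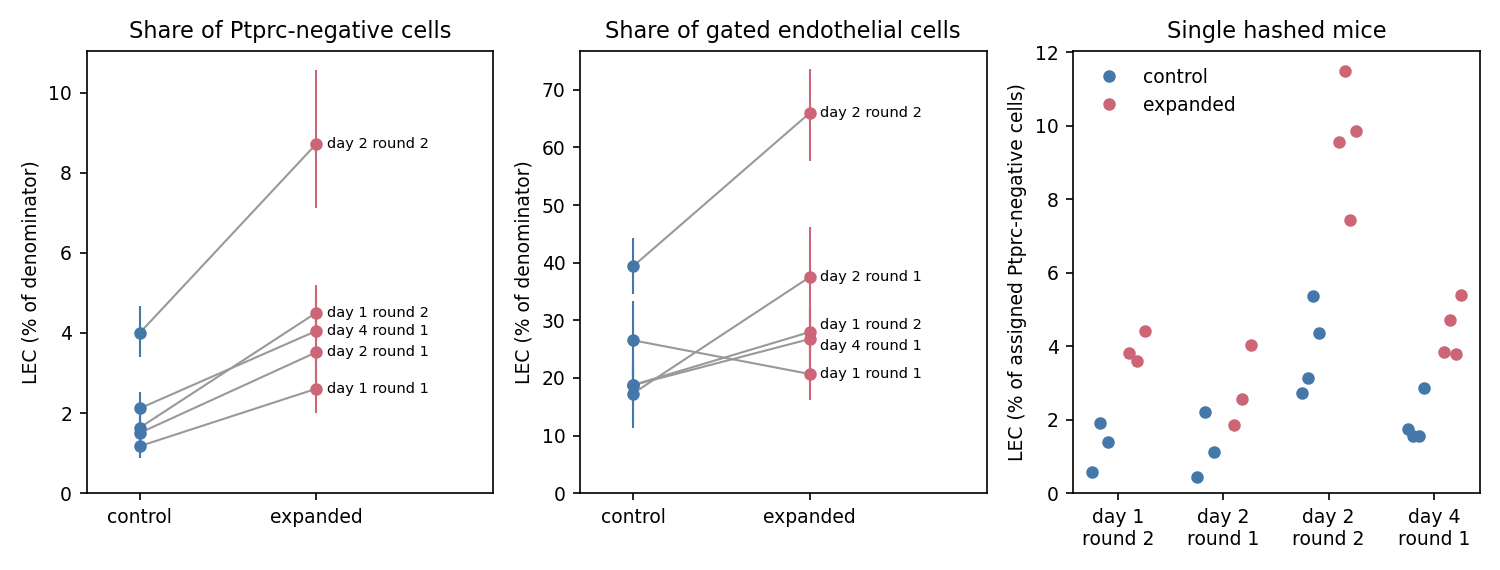
LEC share of Ptprc-negative cells (left) and of gated endothelial cells (middle) in percent, 1 point per library with its 95% exact binomial interval and a line joining each pair, and the share per hashed mouse (right). The left panel rises in all 5 pairs, while the middle panel falls in day 1 round 1.

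Hashing antibodies, which mark the cells of 1 mouse before pooling, gave 399 of the 806 LEC of the hashed libraries to a mouse. Control mice had LEC shares of 0.452% to 5.37% of their assigned Ptprc-negative cells (median 1.83%), and expanded mice had 1.85% to 11.5% (median 4.22%), with 14 mice per arm. On day 1 round 2, the 3 control mice lay at 0.565% to 1.90% and the 3 expanded mice at 3.61% to 4.41%. On day 2 round 2, the 4 control mice lay at 2.73% to 5.37% and the 4 expanded mice at 7.43% to 11.5%. The arms did not overlap in those rounds or on day 4 (1.56% to 2.86% against 3.78% to 5.39%), and they overlapped on day 2 round 1 (0.452% to 2.20% against 1.85% to 4.03%). The means were 2.21% ± 1.38 and 5.46% ± 2.95 (SD, n = 14 each, two-sided permutation within rounds, p = 1e-05, the smallest that 100000 resamples can give). As a share of gated endothelial cells, LEC had means per mouse of 22.9% ± 10.1 in control and 38.8% ± 21.3 in expanded mice. That difference had p = 0.00039 (SD, n = 14 each, two-sided permutation within rounds), with ranges of 11.1% to 43.4% and 16.3% to 83.3%. The mice of an arm and round shared 1 tube, so an effect of the tube cannot be told apart from that of the expander, and each mouse rests on 1 to 65 LEC.

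On average a larger share of expanded LEC held the capillary marker Lyve1, but the arms overlapped, also after thinning (control up to 58.0%, expanded from 56.9%). A smaller share held Foxp2, a collecting vessel gene, without overlap after thinning. The valve genes Gja4 and Foxc2 overlapped between the arms. Lyve1 belongs to the rule, and its values are a description. It was detected in 50%, 58.3%, 43.5%, 60.5% and 49.1% of control LEC and in 73.8%, 59.9%, 84.3%, 76.8% and 66.7% of expanded LEC. After each cell was thinned to 2000 UMIs, a depth that 60 control and 18 expanded members did not reach, the means were 45.8% ± 9.48 and 68.7% ± 9.29 (SD, n = 5 each). The level of Lyve1 was 966 ± 453 CPM in control and 2139 ± 547 CPM in expanded LEC, and that of Prox1 1040 ± 244 and 495 ± 102 CPM (SD, n = 5 each).

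The split by Lyve1 followed most of the known capillary and collecting genes examined. Among the thinned cells, 489 had a Lyve1 UMI and 352 had none. Ccl21a was found in 91.8% of the former and 36.4% of the latter, Reln in 54.2% and 22.7%, and the stretch-gated channel gene Piezo2 in 22.9% and 3.69%. The reverse held for Foxp2, a transcription factor of collecting lymphatics, with 4.70% and 19.3%, for the tight junction gene Cldn11 with 1.64% and 12.8%, and for the gap junction gene Gja4, which is found in valves, with 4.09% and 16.2%. Itih5, also on the list of collecting vessel genes, was instead found more in cells with Lyve1 (7.36% and 3.69%). These are shares of cells pooled over libraries, and the Lyve1-positive cells come more from expanded libraries.

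Of the 17 collecting vessel and valve genes tested, 4 fell in expanded LEC and 0 rose, at an edgeR adjusted p under 0.05, a threshold that 3.89% of all 7684 tested genes passed downward and 3.38% upward. The list had a median log2 fold change of -0.28 against -0.0027 over all genes. Foxp2 had 103, 110, 147, 74.5 and 130 CPM in control and 58.9, 55.9, 14.3, 38.4 and 48.1 CPM in expanded LEC. Every expanded library lay below every control library (log2 fold change -1.38, SE 0.24, edgeR adjusted p = 0.00159). Cd24a (-1.43, SE 0.32, edgeR adjusted p = 0.0270), a surface glycoprotein, and Itih5 (-1.33, SE 0.29, edgeR adjusted p = 0.00857), a hyaluronan-associated protein, also fell, the call of Cd24a being lost without the day 1 round 1 or day 4 control or the day 1 round 1, day 2 round 1, day 2 round 2 or day 4 expanded library, and with the replicate block (edgeR adjusted p = 0.0600). In members with a Lyve1 UMI the log2 fold change of Itih5 was -1.92 (edgeR adjusted p = 0.00790). In members without one it was -0.47 (edgeR adjusted p = 0.829). Cldn11 fell by 1.12 (SE 0.32, edgeR adjusted p = 0.0404), a call that held only without the day 1 round 2 control or the day 1 round 2 expanded library when 1 library was left out. The valve genes Gja4, Foxc2 and Itga9 had log2 fold changes of -0.10, -0.14 and -0.28 and did not pass. In cells thinned to 2000 UMIs, Foxp2 was detected in 16.2% ± 2.62 of control and 5.53% ± 3.89 of expanded LEC (SD, n = 5 each), against 0.282% and 0% of the blood gate. Among expanded thinned LEC without Lyve1, 9.09% of 154 cells had Foxp2, against 27.3% of 198 in control libraries. In the same cells Cldn11 was found in 11.0% and 14.1%, and Gja4 in 16.9% and 15.7%. Over all thinned LEC, Gja4 was found in 9.61% ± 4.59 of control and 8.33% ± 5.65 of expanded cells, and Foxc2 in 7.17% ± 2.99 and 9.43% ± 7.26 (SD, n = 5 each).

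Of the 10 capillary genes tested besides Lyve1, 0 passed in either direction and the median log2 fold change was -0.53. Ccl21a had 5863, 8926, 19899, 16415 and 9456 CPM in control and 8765, 4777, 6078, 13557 and 4457 CPM in expanded LEC. The arms overlapped, and Ccl21a was lower in 4 of 5 pairs (-0.73, SE 0.26, edgeR adjusted p = 0.116). Reln (-0.45), Piezo2 (-0.52), Stab1 (-0.49) and Mrc1 (-0.71) were likewise not called. Detection of Ccl21a after thinning was 70.1% ± 6.50 in control and 67.9% ± 9.99 in expanded LEC (SD, n = 5 each), so the difference is smaller than either SD.

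**Figure D2:**
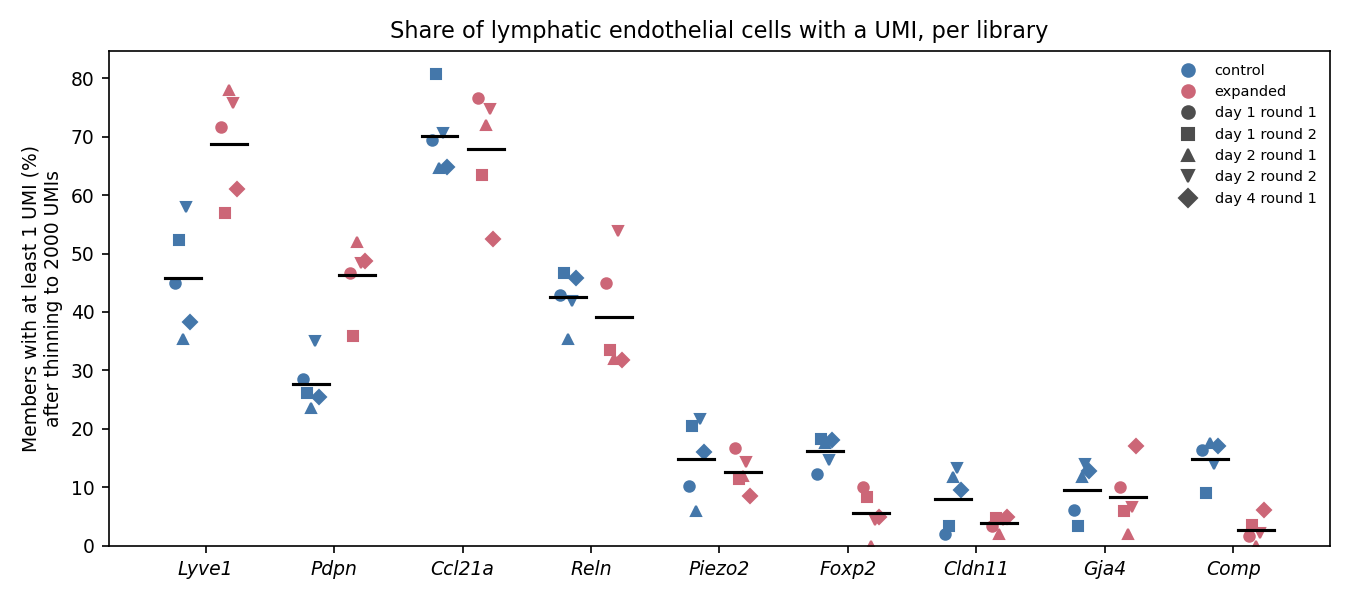
Percent of LEC with at least 1 UMI of each gene after thinning to 2000 UMIs, 1 point per library (shape gives the pair, colour the arm) with the mean as a black bar. Pdpn was found in a larger share of expanded LEC and Foxp2 and Comp in a smaller one, without overlap. Lyve1 had a larger mean share in expanded LEC with overlap, and Ccl21a and Reln also overlapped between the arms.

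The summed UMIs of the LEC were then tested gene by gene, with 5 libraries per arm and day as a covariate. Of 7684 genes, 559 passed an edgeR adjusted p of 0.05 (7.27%), 260 of them higher and 299 lower in expanded LEC. These are 3.38% and 3.89% of all tested genes, the shares beside which the counts of every list are to be read. The lists were chosen with earlier results of these data known, so a count above these shares is a description only. Among the 559 are 3 genes of the rule (Lyve1, Prox1 and Col1a2), and 472 moved the same way in all 5 pairs. The libraries of the arms did not overlap for 580 genes (7.55%). Without scaling factors, 411 genes were higher and 222 lower. After thinning to 2000 UMIs, 3735 genes could be tested, 223 passed, and 188 of them were among the 559. Leaving out the day 4 control or day 4 expanded library left 164 or 160 calls. Day 4 then offers no comparison, and its part in the drop was not tested. Of the genes described below, thinning ended the calls of Nrp2, Tie1, Klf2, Fosl2, Jund, Dusp1, Zfp36, Hsph1, Dnaja1, Cav2, Aqp1, Plat, Cldn11, Cd200, Cebpd, Socs3, H2-Aa, H2-Q7, Psmb9, Pfkfb3, Ubash3a, Igfbp5, Tubb5 and Stmn1, and of 6 further genes named with their lists. The sign did not turn, but the values of Tie1, Dusp1, Socs3, Plat, H2-Aa and Eif5a shrank by over 1.5 times, to -0.12, -0.39, -0.37, -0.67, -1.04 and 0.27. Sh2d5, Btnl9, Vcam1, Ptx3, Rspo3, Igf1, Cd36 and H2-Eb1 had no test after thinning, so their calls were not examined at equal depth.

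**Figure D3:**
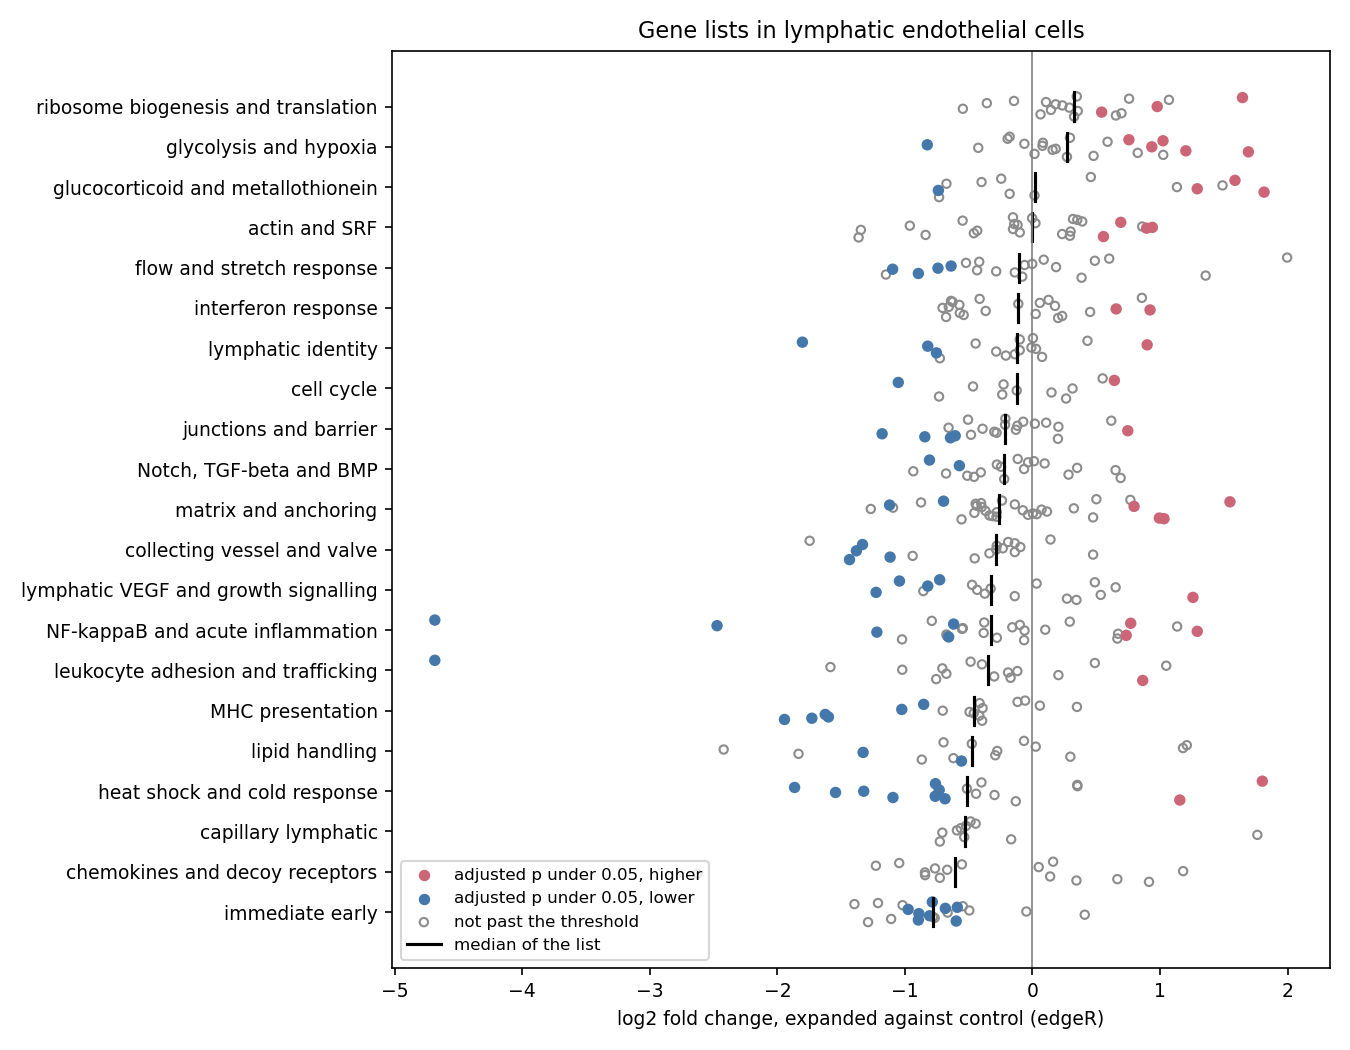
Log2 fold change (expanded against control, edgeR) of each tested gene of 21 gene lists in LEC, rule genes left out, with calls filled and the list median as a black bar. Immediate early and heat shock genes lie mostly to the left of 0, and glycolysis and translation genes mostly to the right.

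Among the 16 tested lymphatic identity genes outside the rule, 1 rose and 3 fell (median log2 fold change -0.12). Pdpn, which encodes podoplanin, a membrane mucin of lymphatic endothelium that binds platelets and dendritic cells through CLEC2, rose. It had 159, 170, 147, 294 and 171 CPM in control and 450, 269, 393, 460 and 353 CPM in expanded LEC, and only the control library of day 2 round 2 lay above an expanded library (0.90, SE 0.18, edgeR adjusted p = 0.00493). In members with a Lyve1 UMI the log2 fold change was 0.82 (edgeR adjusted p = 0.00762), and in members without one it turned to -0.27 (edgeR adjusted p = 0.816). Pdpn was found in 49.7% of thinned cells with Lyve1 and 19.9% of those without. Pdpn was also higher in all other cells, at 164 against 122 CPM, and its share of thinned LEC with a UMI was 27.7% ± 4.42 in control and 46.3% ± 6.13 in expanded libraries (SD, n = 5 each). Nrp2, a coreceptor of VEGFR3, fell by 0.82 (SE 0.17, edgeR adjusted p = 0.00493), with 230 to 333 CPM in control and 148 to 236 CPM in expanded LEC. Fxyd6, a regulator of the sodium pump, fell without overlap (-0.75, SE 0.15, edgeR adjusted p = 0.00552). Rspo3, a secreted enhancer of Wnt signalling, fell from a low level (0 to 53.4 CPM in control, 5.35 to 17.1 CPM in expanded LEC, -1.80, edgeR adjusted p = 0.0191), a call lost without the day 2 round 2 control, day 4 control or day 4 expanded library.

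Growth factor signalling showed 1 gene that rose and 4 that fell among 17 tested (median log2 fold change -0.33). Angpt2, the secreted ligand of the TIE2 receptor that endothelium makes during vessel remodelling, had 76.9, 57.4, 136, 110 and 102 CPM in control and 179, 188, 320, 214 and 280 CPM in expanded LEC. Every expanded library lay above every control library (1.26, SE 0.18, edgeR adjusted p = 0.000283). The receptor genes of that ligand family fell: Tie1 by 0.73 (SE 0.18, edgeR adjusted p = 0.0191) and Tek, which encodes TIE2, by 1.04 (SE 0.31, edgeR adjusted p = 0.0494). Tek held its call only without the day 1 round 1 expanded or day 2 round 1 control library, and Tie1 lost its call without the day 1 round 1 control, day 1 round 2 expanded, day 2 round 2 control or either day 4 library. After thinning, Tie1 had a log2 fold change of -0.12 (edgeR adjusted p = 0.804), and Tek was not called with the replicate block (edgeR adjusted p = 0.0505) or by DESeq2 (adjusted p = 0.115). Igf1 fell by 1.23 from a low level (10.5 to 53.6 CPM in control and 5.36 to 26.5 CPM in expanded LEC, edgeR adjusted p = 0.0207), a call lost without the day 2 round 2 control or either day 4 library. The receptor gene Kdr was lower in all 5 pairs without a call (-0.43, edgeR adjusted p = 0.146).

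**Figure D4:**
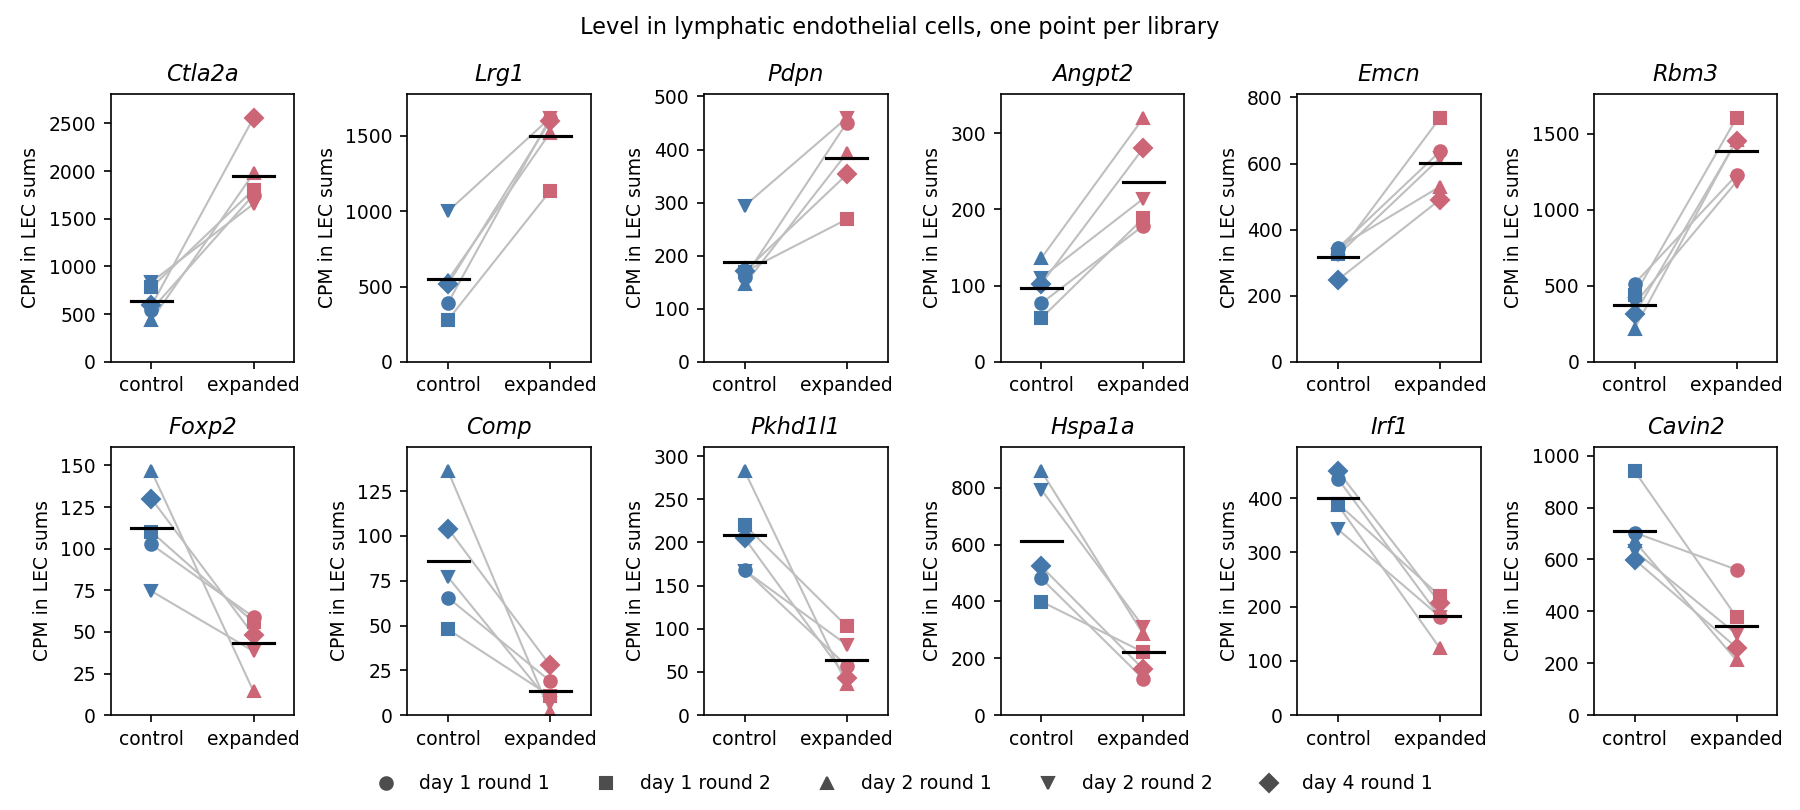
CPM in the summed LEC of each library for 12 genes, with a grey line joining each pair, the shape giving the pair and the black bar the mean of the arm. In 5 of the 6 upper genes and in all 6 lower genes the arms do not overlap, and Pdpn overlaps through the control library of day 2 round 2.

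The genes that rose most, among those at 50 CPM or more in an arm, moving alike in all 5 pairs and at least as high in LEC as in other cells, were led by Sh2d5, Cmah, Fkbp5, Ubash3a and Rbm3. Lrg1, a secreted leucine-rich glycoprotein that modulates TGF-beta signalling in endothelium, had 393, 280, 544, 1000 and 518 CPM in control and 1619, 1134, 1522, 1620 and 1597 CPM in expanded LEC. Each expanded library lay above all controls (1.44, SE 0.21, edgeR adjusted p = 0.000444), and other cells had 29.7 CPM in control and 98.0 CPM in expanded skin. The blood gate had means of 559 CPM in control and 973 CPM in expanded libraries, so Lrg1 was not particular to LEC. Ctla2a, which encodes an inhibitor of cysteine proteases, had 547, 780, 440, 838 and 591 CPM in control and 1750, 1805, 1976, 1656 and 2557 CPM in expanded LEC (1.49, SE 0.18, edgeR adjusted p = 5.21e-05). In the blood gate Ctla2a was higher, with means of 1880 CPM in control and 5052 CPM in expanded libraries. Ctla2b, its close paralog, rose by 1.37 (edgeR adjusted p = 0.0117, lost without either day 4 library), and reads can be split between the pair. The cold-inducible RNA-binding protein gene Rbm3 had 220 to 515 CPM in control and 1187 to 1606 CPM in expanded LEC (1.80, SE 0.18, edgeR adjusted p = 3.3e-06), and it was also higher in all other cells of expanded skin, at 1258 against 429 CPM.

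Several of the genes that rose take part in metabolism or transport. Srm, spermidine synthase, had 13.0 to 33.5 CPM in control and 66.3 to 83.6 CPM in expanded LEC (1.65, SE 0.23, edgeR adjusted p = 0.000185). Slc39a14, a zinc and iron importer, had 20.9 to 89.4 CPM and 143 to 215 CPM (1.59, SE 0.21, edgeR adjusted p = 0.000144). The arms did not overlap for either gene. Cmah, an enzyme of sialic acid synthesis, rose by 2.32, Sh2d5, an adaptor protein, by 2.49, and the membrane cytochrome gene Cyb561 by 1.32 (edgeR adjusted p from 0.000145 to 0.00282). Fkbp5, a co-chaperone induced by glucocorticoids, had 8.12 to 22.8 CPM in control and 34.2 to 72.1 CPM in expanded LEC (1.82, SE 0.29, edgeR adjusted p = 0.000677). Ubash3a, best known as a brake on T cell receptor signalling, rose by 1.81 (edgeR adjusted p = 0.0451) but ran from 0 to 57.0 CPM in control and from 7.49 to 196 CPM in expanded LEC, and its call held only without the day 1 round 1 control or the day 1 round 2 expanded library.

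The genes that fell most by the same rule were led by Comp, Ptn, Btnl9 and Gucy1a1. Comp, an extracellular matrix glycoprotein first known from cartilage, had 65.5, 47.8, 136, 76.9 and 104 CPM in control and 19.0, 10.8, 1.79, 6.98 and 27.8 CPM in expanded LEC. All expanded libraries lay below all controls (-2.67, SE 0.35, edgeR adjusted p = 0.000378), and other cells had medians of 0.572 and 0.390 CPM. Gucy1a1, a subunit of the guanylate cyclase that senses nitric oxide, had 71.2 to 179 CPM in control and 19.7 to 51.2 CPM in expanded LEC (-1.87, SE 0.25, edgeR adjusted p = 0.000169). Pkhd1l1, a large membrane protein whose transcript was nearly absent from the blood gate, had 168, 220, 283, 168 and 205 CPM in control and 57.0, 103, 35.7, 81.4 and 42.8 CPM in expanded LEC (-1.74, SE 0.26, edgeR adjusted p = 0.00102). Neither gene overlapped between the arms.

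Of the named genes that fell, Ptn, Pdgfa and Igfbp5 encode secreted factors. Ptn, the heparin-binding growth factor pleiotrophin, had 272 to 553 CPM in control and 23.5 to 153 CPM in expanded LEC (-2.06, SE 0.33, edgeR adjusted p = 0.00622). Pdgfa, a ligand for mesenchymal cells, had 83.7 to 139 CPM and 14 to 84.5 CPM (-1.62, SE 0.29, edgeR adjusted p = 0.00344), with the expanded day 4 library just above the lowest control. Igfbp5, which binds insulin-like growth factors, had 984 to 1857 CPM in control and 98.3 to 785 CPM in expanded LEC (-1.79, SE 0.37, edgeR adjusted p = 0.0271). Other cells also had less Igfbp5 in expanded skin, 333 against 1103 CPM, and the call was lost without the day 1 round 1, day 2 round 1, day 2 round 2 or day 4 control or the day 1 round 2 or day 4 expanded library, and after thinning (detected in 59.5% of thinned control and 30.3% of thinned expanded LEC). Btnl9, Pcp4l1, Tmem158 and the transcription factor gene Zbtb10 fell by 1.91, 1.79, 1.54 and 1.46 (edgeR adjusted p from 0.000141 to 0.00646), Tmem158 losing its call without either day 4 library.

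Of 17 heat and cold response genes, 8 fell and 2 rose, against 3.89% and 3.38% of all genes, with a median log2 fold change of -0.51. As the list was chosen with earlier results of these data known, this excess is a description and not a test. The other 7 were not called, among them Hspe1 and Hspd1 (0.35 each), Hsp90b1 (-0.44), Calr (-0.13) and Pdia6 (-0.40). Hspa1a, which encodes the inducible HSP70 chaperone, had 481, 400, 858, 793 and 523 CPM in control and 127, 222, 284, 311 and 162 CPM in expanded LEC, with no overlap (-1.54, SE 0.17, edgeR adjusted p = 2.23e-05). Its neighbour Hspa1b has nearly the same sequence, so the 2 cannot be separated with certainty, and it fell by 1.32 (edgeR adjusted p = 5.21e-05). The small heat shock gene Hspb1 had 574 to 769 CPM in control and 115 to 401 CPM in expanded LEC (-1.87, SE 0.26, edgeR adjusted p = 0.000945). Hsp90aa1, Dnajb1, Hsph1, Dnaja1 and the endoplasmic reticulum chaperone gene Hspa5 fell by 0.76, 1.09, 0.76, 0.69 and 0.73 (edgeR adjusted p from 0.00822 to 0.0304), and each of these lost its call without either day 4 library. Dnajb1, Hsph1 and Dnaja1 also lost it without 2 to 4 of the other libraries. Hspa1a was also lower in other cells of expanded skin, at 132 against 339 CPM, whereas Hspb1 had 362 against 242 CPM. In the blood gate both were lower in expanded libraries, with means of 101 against 278 CPM for Hspa1a and 425 against 1033 CPM for Hspb1. Rbm3 and Cirbp, the genes induced by cold in this list, were the ones that rose (Cirbp 1.16, SE 0.23, edgeR adjusted p = 0.00503). Cell dissociation is known to induce heat shock and immediate early genes, and its part in these differences was not tested.

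Promoters of heat shock genes carry heat shock elements, arrays of the unit GAA in alternating orientation that bind the factor HSF1. The letters GAANNTTC or TTCNNGAA, each its own reverse complement and so read on both strands at once, were searched in the 250 bases before the start site, with 1 RefSeq start site taken per gene (GRCm38.p6). Of 27025 promoters 12.9% held such a pair of units. Of the 17 listed genes 13 had a promoter, and 6 of these held a pair. Among the 7 genes with a promoter that fell, 5 held one (Hspa1a, Hspa1b, Hspb1, Hsph1 and Dnaja1), and Hspa5 and Dnajb1 held none. A pair extended by NN and another unit in alternation, which makes a run of 3 units, was held by 0.4% of all promoters and by 0 of these 7. In the list only Hspe1, which was not called (0.35, edgeR adjusted p = 0.252), held such a run, and it was also the other listed gene with a pair. A match is a description of these letters only. The promoters of Hspa1a, Hspb1, Hsph1 and Dnaja1 follow because their genes were among those that fell, each 5′ to 3′ up to the base before the start site, in lower case with the paired units in capitals. They lie at chr17:34972157-34972406 on the minus strand, chr5:135887669-135887918 on the plus strand, chr5:149636337-149636586 on the minus strand and chr4:40722218-40722467 on the plus strand.

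Hspa1a: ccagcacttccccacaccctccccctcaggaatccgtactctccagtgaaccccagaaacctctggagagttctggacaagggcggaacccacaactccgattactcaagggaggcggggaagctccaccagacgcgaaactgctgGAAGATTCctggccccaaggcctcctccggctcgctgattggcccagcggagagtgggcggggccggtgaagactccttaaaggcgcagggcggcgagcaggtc
Hspb1: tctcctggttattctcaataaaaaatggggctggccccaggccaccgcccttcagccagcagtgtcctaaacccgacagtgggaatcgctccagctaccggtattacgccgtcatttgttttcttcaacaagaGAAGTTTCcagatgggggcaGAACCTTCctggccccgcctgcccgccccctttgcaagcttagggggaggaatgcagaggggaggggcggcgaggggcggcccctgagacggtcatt
Hsph1: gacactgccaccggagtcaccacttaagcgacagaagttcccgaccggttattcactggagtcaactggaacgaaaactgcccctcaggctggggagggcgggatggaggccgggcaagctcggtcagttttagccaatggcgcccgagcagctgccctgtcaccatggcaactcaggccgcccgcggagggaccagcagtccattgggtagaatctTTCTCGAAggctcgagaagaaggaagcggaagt
Dnaja1: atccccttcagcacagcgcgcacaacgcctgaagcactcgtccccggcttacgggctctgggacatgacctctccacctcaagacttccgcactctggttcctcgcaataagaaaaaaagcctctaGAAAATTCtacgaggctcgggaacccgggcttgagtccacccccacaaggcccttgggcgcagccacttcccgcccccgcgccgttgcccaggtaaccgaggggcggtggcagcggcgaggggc

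Immediate early genes are the first to be transcribed after many stimuli. Of 20 tested, 8 fell and 0 rose, against 3.89% and 3.38% of all genes. A negative log2 fold change was seen for 19, and the median was -0.78. Jun had 5282, 4883, 7066, 6621 and 5225 CPM in control and 4166, 5315, 2030, 3335 and 1876 CPM in expanded LEC. Only the expanded library of day 1 round 2 reached the controls (-0.98, SE 0.24, edgeR adjusted p = 0.0243). Fosb, Fosl2, Junb, Jund, Egr1, Zfp36 and Dusp1 fell by 0.59 to 0.89 (edgeR adjusted p from 0.0107 to 0.0494). All 8 calls were lost without either day 4 library, all but those of Fosb and Fosl2 also without 3 to 6 others, those of Jun and Egr1 with the replicate block (edgeR adjusted p = 0.0880 and 0.0705), and Fos (-0.78, edgeR adjusted p = 0.0722) and Atf3 (-1.29, edgeR adjusted p = 0.0902) were not called.

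Among the 20 tested genes of the response to flow and stretch, 4 fell and 0 rose. Klf2, a transcription factor induced by laminar flow, had 1606, 1885, 2198, 3110 and 2459 CPM in control and 1528, 1710, 706, 875 and 1003 CPM in expanded LEC. It was lower in all 5 pairs (-1.10, SE 0.26, edgeR adjusted p = 0.0270, or 0.0905 with the replicate block), and a difference of its effect between days was not called (edgeR adjusted p = 0.691). Klf4, Egr1 and Nfatc1, a regulator of valve formation, fell by 0.74, 0.89 and 0.64 (edgeR adjusted p from 0.0296 to 0.0450), and all 4 calls were lost without either day 4 library. In all, Klf2 lost its call in 5, Klf4 in 8, Egr1 in 6 and Nfatc1 in 4 of the 10 omissions of 1 library. The mechanosensitive channel genes Piezo1 (0.00, edgeR adjusted p = 0.999) and Piezo2 (-0.52, edgeR adjusted p = 0.187) did not pass. The targets of the stretch-sensitive factor YAP, Ccn1 (-0.08) and Ccn2 (1.36), did not pass (edgeR adjusted p = 0.854 and 0.0896), nor did Thbs1 (2.00, edgeR adjusted p = 0.0607), whose mean was 81.4 CPM in control and 400 CPM in expanded LEC.

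Of 21 junction and barrier genes tested, 4 fell and 1 rose. Cavin2, which shapes caveolae, had 703, 940, 670, 633 and 599 CPM in control and 561, 377, 211, 312 and 260 CPM in expanded LEC, with no overlap (-1.18, SE 0.18, edgeR adjusted p = 0.000389). The caveolin genes Cav1 and Cav2 fell by 0.84 and 0.61 (edgeR adjusted p = 0.00622 and 0.0484). Cav2 held its call only without the day 1 round 1 expanded library, and Cav1 lost its call without either day 4 library. Aqp1, a water channel gene that blood endothelium also expresses, fell by 0.64 (edgeR adjusted p = 0.0355), a call that held only without the day 2 round 1 control or the day 2 round 2 expanded library. Ctnna1, the actin-binding catenin of adherens junctions, rose, with 220 to 461 CPM in control and 515 to 990 CPM in expanded LEC (0.75, SE 0.18, edgeR adjusted p = 0.0144).

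Of the 32 matrix and anchoring genes tested, 4 rose (12.5%, against 3.38% of all genes), 2 fell (6.25%, against 3.89%) and 26 did not pass. Col4a1, a chain of type IV collagen, had 168, 323, 126, 290 and 159 CPM in control and 371, 371, 595, 497 and 601 CPM in expanded LEC (1.03, SE 0.24, edgeR adjusted p = 0.0162). Col4a2 rose by 0.99 and the basement membrane linker gene Nid1 by 0.80 (edgeR adjusted p = 0.0282 and 0.0155). Timp1, an inhibitor of matrix metalloproteinases, had 10.5 to 48.4 CPM in control and 62.7 to 92.0 CPM in expanded LEC (1.55, SE 0.27, edgeR adjusted p = 0.00143), and other cells had medians of 49.9 CPM in control and 333 CPM in expanded skin. Timp2 fell by 0.70 and Plat, tissue plasminogen activator, by 1.12 (edgeR adjusted p = 0.0217 and 0.00866). The calls of Col4a1, Col4a2, Nid1 and Timp2 were lost without either day 4 library, and those of Col4a2 and Timp2 also without several others, the day 1 round 1 and day 2 round 2 controls among them.

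Emcn, the sialomucin endomucin, rose without overlap between the arms, with 249 to 345 CPM in control and 491 to 738 CPM in expanded LEC (0.84, SE 0.15, edgeR adjusted p = 0.00209). It stood in the list of 14 blood endothelial markers, whose sum was 639 to 1584 CPM in control and 896 to 1847 CPM in expanded LEC, and none of which was at 0. Of the 11 tested, Cytl1 was the only one that fell, with 122, 78.9, 0, 4.96 and 112 CPM in control and 0, 0.980, 0, 1.16 and 0 CPM in expanded LEC (-6.61, edgeR adjusted p = 2.92e-07).

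Inflammatory genes split in both directions. Of 26 NF-kappaB and acute inflammation genes, 3 rose and 5 fell. Lcn2, the iron-binding acute phase protein lipocalin 2, had 572, 689, 314, 462 and 227 CPM in control and 2809, 2097, 504, 997 and 493 CPM in expanded LEC. It was higher in all 5 pairs and highest on day 1 (1.29, SE 0.22, edgeR adjusted p = 0.00256). The ferritin gene Fth1 rose by 0.73 and the mitochondrial superoxide dismutase gene Sod2 by 0.77 (edgeR adjusted p = 0.00552 and 0.00911). Irf1, a transcription factor of the interferon response, had 343 to 450 CPM in control and 123 to 220 CPM in expanded LEC (-1.22, SE 0.16, edgeR adjusted p = 0.000141). Socs3, Cebpd and Ptx3 fell by 0.62, 0.66 and 2.47 (edgeR adjusted p from 0.0115 to 0.0302), and these calls and that of Sod2 were lost without either day 4 library. In all, Socs3 lost its call in 7 and Ptx3 in 4 of the 10 omissions of 1 library. The adhesion molecule gene Vcam1 had 48.4, 26.3, 0, 13.7 and 115 CPM in control and 1.90, 0.980, 5.36, 0 and 1.07 CPM in expanded LEC (-4.69, SE 0.60, edgeR adjusted p = 0.00019), and other cells also had less, at 35.7 against 113 CPM.

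Of the 16 tested leukocyte adhesion and trafficking genes, Cd200, which encodes an inhibitory ligand for myeloid cells, was the 1 that rose (0.86, edgeR adjusted p = 0.0413), and Vcam1 the 1 that fell. Each is 6.25% of the list, against 3.38% of all genes that rose and 3.89% that fell. Cd200 held its call only without the day 1 round 2 expanded library. Of 16 chemokine and decoy receptor genes tested, 0 passed at an edgeR adjusted p of 0.05 (7.27% of all genes did), with a median log2 fold change of -0.61. The scavenging receptor gene Ackr2 was higher in 5 of 5 pairs (0.91, edgeR adjusted p = 0.104). Ccl2 and Cxcl2 had log2 fold changes of 0.67 and 0.05 (edgeR adjusted p = 0.667 and 0.990).

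Among 21 interferon response genes, 2 rose and 0 fell. Ifitm2 and Ifitm3, paralogs that restrict virus entry and share sequence, rose by 0.92 and 0.66 (edgeR adjusted p = 0.000945 and 0.0162), each without overlap between the arms. Their levels in other cells were 627 and 786 CPM in control and 1240 and 1416 CPM in expanded skin. Isg15 (-0.11) did not pass.

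Antigen presentation genes were lower where they passed, with 6 of 17 that fell and 0 that rose. H2-Ab1, a class II chain, had 54.1, 112, 167, 160 and 99.1 CPM in control and 34.2, 44.1, 37.5, 45.4 and 35.3 CPM in expanded LEC, without overlap (-1.60, SE 0.22, edgeR adjusted p = 0.000174). Cd74, the invariant chain, fell by 1.94, H2-Aa by 1.73 and H2-Eb1 by 1.62 (edgeR adjusted p from 0.00182 to 0.0166). In all other cells the medians of these genes were far above LEC and also lower in expanded skin, with 5610 against 2188 CPM for Cd74 and 2051 against 974 CPM for H2-Ab1. The 9 dendritic cell markers summed to 17.9 to 28.7 CPM in control and 9.50 to 17.9 CPM in expanded LEC, with Flt3 and Xcr1 at 0. The class I gene H2-Q7, one of a family of similar genes, fell by 1.02 and the immunoproteasome gene Psmb9 by 0.85 (edgeR adjusted p = 0.00368 and 0.0304). H2-Aa and H2-Eb1 lost their calls without the day 2 round 2 control or either day 4 library, and Psmb9 without 6 of the 10 libraries.

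Of 21 genes of glycolysis and hypoxia, 5 rose and 1 fell (median log2 fold change 0.27). Gapdh had 513, 419, 377, 433 and 416 CPM in control and 865, 1109, 1049, 990 and 1306 CPM in expanded LEC (1.2, SE 0.16, edgeR adjusted p = 0.000141). Eno1 rose by 1.69, Pgk1 by 1.02, Ldha by 0.94 and Pkm by 0.76 (edgeR adjusted p from 0.000169 to 0.0163), and for all 5 genes every expanded library lay above every control. Other cells also had more, with Gapdh at 1004 against 434 CPM. Pfkfb3, which makes the activator of phosphofructokinase, fell by 0.82 (edgeR adjusted p = 0.0396), a call that held only without the day 2 round 1 control library. Of 19 genes of ribosome biogenesis and translation, Srm, Nhp2 and Eif5a rose and 0 fell, and 16 had a positive log2 fold change.

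Of 25 actin and cytoskeleton genes, Actb, Tuba1b, S100a6 and S100a11 rose and 0 fell. S100a6, a calcium-binding protein, had 1689 to 3134 CPM in control and 4419 to 6930 CPM in expanded LEC (0.94, SE 0.17, edgeR adjusted p = 0.00238). Of 13 glucocorticoid and metallothionein genes, Fkbp5, Lcn2 and Slc39a14 rose and Klf9 fell. Of 15 lipid handling genes, Cd36 and the cholesterol exporter gene Abca1 fell, by 1.33 and 0.56 (edgeR adjusted p = 0.0313 each). With a gate of at least 3 UMIs, Cd36 had a log2 fold change of -0.29 (edgeR adjusted p = 0.744), and DESeq2 did not call it (adjusted p = 0.0613). Of 19 Notch, TGF-beta and BMP genes, Tgfbr2 fell by 0.81 (SE 0.16, edgeR adjusted p = 0.00368) and Notch1 by 0.57 (edgeR adjusted p = 0.0313). The calls of Eif5a, Abca1, Cd36 and Notch1 were lost when any of at least 7 of the 10 libraries was left out, either day 4 library among them. The single-library losses of Nhp2, Actb, Tuba1b, Klf9, Pkm and Ifitm3 included the day 4 expanded library, and thinning also ended the calls of Nhp2, Tuba1b, Klf9, Eif5a, Abca1 and Notch1.

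Few LEC showed signs of division. After thinning to 2000 UMIs, 1 of 391 control LEC and 2 of 450 expanded LEC held at least 2 UMIs of 11 cycling genes such as Mki67 and Top2a, against 17 of 1331 and 18 of 1026 cells of the blood gate. The mean shares per library were 0.213% ± 0.476 and 0.453% ± 0.726 (SD, n = 5 each), a difference not detectable at this depth (exact permutation p = 0.722). Of 11 cell cycle genes tested, the tubulin gene Tubb5 rose by 0.64 and Stmn1, a microtubule destabilizer, fell by 1.05 (edgeR adjusted p = 0.0209 and 0.0182), and 16 listed genes were too low to test. Both calls were lost without either day 4 library and after thinning (edgeR adjusted p = 0.0583 and 0.0817), and that of Stmn1 also without the day 1 round 1 control.

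The effect of expansion was compared between days in an edgeR fit with a term for each day. At an edgeR adjusted p of 0.05, 0 of 8659 genes (0%) differed between days, 251 had an unadjusted p under 0.05, and the smallest adjusted p was 0.0884 (Plet1). Without the filter on low counts 36 genes passed, and after thinning 1 did. Day 4 had 1 pair.

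LEC were then compared with blood endothelial cells of the same libraries, which had 110 to 503 cells in control and 49 to 456 in expanded libraries. Within the blood gate, 727 of 10841 genes passed between the arms (6.71%). The effect of expansion differed between the gates for 55 of 9656 genes (0.57%), more positive in LEC for 40 and more negative for 15 (edgeR, library as a block, adjusted p under 0.05), and 880 genes had an unadjusted p under 0.05. On simulated counts of 7673 genes this fit called 15.0% of genes whose effect differed between the gates by log2 1 and 85.0% of those that differed by log2 2. The simulated blood counts used the same spread setting for all genes and were drawn independently of the LEC counts of the same library. These shares may therefore differ in the real data. With the blood cells sampled down to the number of LEC the count was 33, after thinning 30, and without single pairs 21 to 92.

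Angptl4, a secreted inhibitor of lipoprotein lipase, did not pass in LEC (-0.29, edgeR adjusted p = 0.393) and fell in the blood gate (-2.25, edgeR adjusted p = 0.0104). It had 76.9, 148, 62.8, 69.5 and 89.3 CPM in control LEC and 83.6, 87.3, 67.9, 61.7 and 87.7 CPM in expanded LEC, with full overlap. In the blood gate it had 57.4 to 208 CPM in control and 23.8 to 43.2 CPM in expanded libraries, without overlap. The difference between the effects was 1.86 on the log2 scale (SE 0.23, edgeR adjusted p = 7.09e-05). The metallothionein gene Mt1, which binds zinc and copper, was higher in expanded LEC in 5 of 5 pairs (105 to 621 against 428 to 1021 CPM), whereas the blood gate had 759 to 1622 CPM in control and 424 to 1055 CPM in expanded libraries (difference 1.85, SE 0.20, edgeR adjusted p = 0.000277). Mt1 was not called within LEC (1.13, edgeR adjusted p = 0.112).

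Among genes whose effect was more negative in LEC, Nudt4, a phosphohydrolase of inositol pyrophosphates, had 384 to 651 CPM in control and 216 to 355 CPM in expanded LEC, without overlap (-0.95, edgeR adjusted p = 0.000865). In the blood gate it had 44.3 to 101 CPM in control and 69.7 to 192 CPM in expanded libraries (difference -1.40, SE 0.21, edgeR adjusted p = 0.00116). The nuclear import receptor gene Ipo11 had 73.3 to 120 CPM in control and 55.9 to 97.4 CPM in expanded LEC, and 26.2 to 46.7 and 58.4 to 162 CPM in the blood gate (difference -1.51, SE 0.23, edgeR adjusted p = 0.00058). Nts had 1284, 916, 3549, 568 and 2066 CPM in control and 355, 876, 273, 356 and 807 CPM in expanded LEC, and at most 22.9 CPM in any blood gate library (difference -3.08, SE 0.40, edgeR adjusted p = 0.0111). It was lower in all 5 pairs, was not called within LEC (-1.75, edgeR adjusted p = 0.186), and its difference was not called with blood cells sampled down or without the pair of day 1 round 2. 

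**Figure D5:**
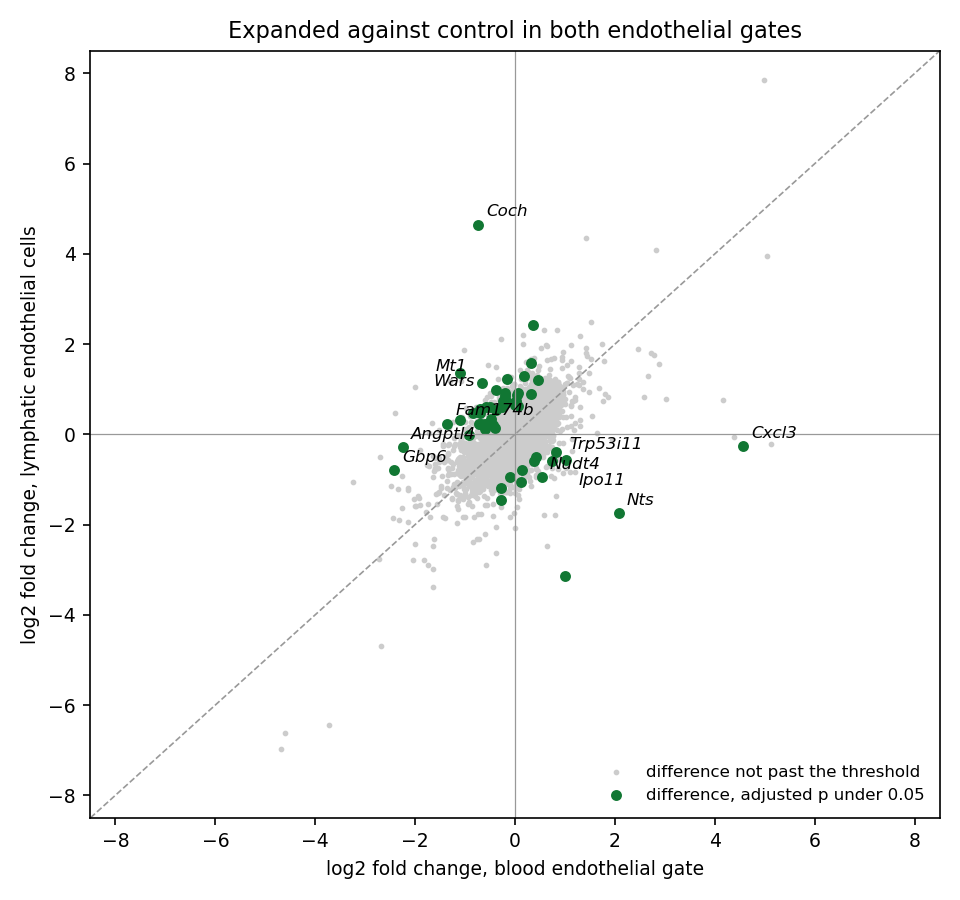
Log2 fold change of expanded against control in LEC (vertical) and in the blood endothelial gate (horizontal) for 7565 genes tested in both, with the 52 genes whose difference passed in green and the dashed line at equal change. Coch, Mt1 and Angptl4 lie above the line and Nts, Cxcl3 and Nudt4 below it.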

How the data were processed

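The matrices the authors deposited hold raw UMI counts. Cell Ranger 6.1.2 and build mm10 are named in the submitters' processing notes. The 10 matrices hold 17726739 to 75470722 gene UMIs each. The members and the gene lists were chosen with earlier results of these data known. Doublets were called with Scrublet in scanpy 1.11.5 and kept; in 4 libraries of 1927 to 3423 cells it marked under 0.5% of cells.

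Counts were summed over the LEC of each library (at least 10 members), low genes were dropped (filterByExpr), TMM factors applied, and day and arm entered the quasi-likelihood model of edgeR 4.0.16 in R 4.3.3, with Benjamini-Hochberg adjustment over all tested genes. DESeq2 1.42.0 was an alternative. Named genes are list members, plus the 12 highest and 12 lowest log2 fold changes among called genes with a mean of at least 50 CPM in 1 arm, the same direction in 5 pairs, and a median in the higher arm at or above that of other cells. For the comparison with blood endothelium they are the 6 highest and 6 lowest differences with at least 50 CPM in 1 group. Shares were compared by exact permutation. A mouse was assigned when its hashtag had at least 10 counts and 3 times the next. Day and round, given in the labels, pair the libraries. Deviations of paired libraries correlated at 0.122 and 0.0157 (day 1), 0.0461 and 0.203 (day 2) and 0.194 (day 4). On simulated counts for the gene comparison of LEC (7403 genes), the fit called 46.9% of genes changed by log2 1 and 91.0% of those changed by log2 2. Intervals cover counting error only. The day 1 round 2 control library is titled as a hashing sample in the labels, and was taken as RNA from its library name and its matrix.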

Additional observations from a re-analysis of the deposited data

Results flagged for a closer look

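A difference between the effects of expansion in LEC and in the blood endothelial gate was called (edgeR adjusted p under 0.05) for the 12 genes named here, of which Angptl4 (1.86), Mt1 (1.85), Nts (-3.08), Ipo11 (-1.51) and Nudt4 (-1.40) are described above. Coch had the largest difference (5.95, edgeR adjusted p = 5.96e-05). It had 0 to 13.0 CPM in control LEC and 572, 266, 3.57, 4.65 and 242 CPM in expanded LEC, but other cells of these libraries had 698 and 1386 CPM, and the difference was not called with blood cells sampled down. Gbp6, one of a family of similar GTPase genes, fell in both gates and by more in the blood gate (difference 1.74), and was not called after thinning. Wars, a tRNA synthetase gene, had 14.6 to 34.8 CPM in control and 34.3 to 70.3 CPM in expanded LEC, against 21.3 to 51.7 and 20.4 to 39.9 CPM in the blood gate (difference 1.48). Fam174b had a difference of 1.63, Trp53i11 of -1.33 and Peg3, an imprinted gene at under 17 CPM in LEC, of -2.03. Cxcl3, a neutrophil attractant, had a difference of -4.76 and at most 26.7 CPM in LEC, with 67 and 376 CPM in other cells. The differences of Fam174b, Peg3 and Cxcl3 each lost their call in 4 of the 8 other settings or pair omissions run.

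Among 58 groups of 4 or 5 values examined for a value far from the rest, 3 stood out, and chance gives about 1 in 20. Among the 4 control mice of day 4, mouse 4 had the highest LEC share, 2.86%, against 1.56% to 1.76% in the other 3. In expanded LEC, Ubash3a had 196 CPM in the library of day 1 round 1 against at most 53.9 CPM in the others. Lrg1 had 1134 CPM in the expanded library of day 1 round 2 against at least 1522 CPM in the others.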

How the results depend on the processing

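The LEC share of Ptprc-negative cells stayed higher in expanded skin in all settings run, but its exact permutation p crossed 0.05 after thinning (1.98 percentage points) and in the sign-flip test of the replicate block (2.60 points, p = 0.0625, the smallest possible); without single libraries the difference ran from 1.59 to 3.12 points. For the share of kept cells it ran from 0.775 to 1.63 points, for that of gated endothelial cells from 4.09 to 15.4 points, where no setting over libraries crossed 0.05. Per hashed mouse, with the mice of an arm and round in 1 tube, the endothelial share differed by 15.9 points (two-sided permutation within rounds, p = 0.00039). The cycling share reversed with at least 1 UMI (-1.80 points) and ran from -0.063 to 0.453 points without single libraries. Against 559 genes called, DESeq2 called 520, the replicate block 734 (544 shared with the 559), no filter 788, thinning 223, LEC with a Lyve1 UMI 443 and LEC without one 17. The fit of LEC without Lyve1 left out the expanded library of day 2 round 1, which had 8 such members. The 2 Lyve1 settings and the fit without scaling factors were added after seeing the data. Without single libraries the count ran from 160 to 530. Among LEC without Lyve1, Pdpn (-0.27) and Aqp1 (0.47) reversed. Between days, 36 genes passed with no filter and 1 after thinning. The difference from blood endothelium gave 30 genes after thinning, 177 with no filter, 33 with blood cells sampled down, and 21 to 92 without single pairs. Of the 102 called genes named or listed, the replicate block lost 5 (Cd24a, Egr1, Jun, Klf2 and Tek), DESeq2 6 (Cd36, Cldn11, Igf1, Pfkfb3, Psmb9 and Tek) and thinning 30 of 94. Depth limits low genes: control LEC of day 2 round 1 numbered 23 with 95532 UMIs. Why the counts moved was not tested.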
